A study of Mus musculus with 11 samples.

Results

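The miR-181 family was followed in small RNA libraries of mouse cortex from day 3 after an ischemic stroke or a sham operation, the stroke being made by permanently occluding the middle cerebral artery (pMCAO). Its members were taken by name, as the mature arms of the miR-181 hairpins: mmu-miR-181a-5p, mmu-miR-181b-5p, mmu-miR-181c-5p, mmu-miR-181d-5p, mmu-miR-181a-1-3p, mmu-miR-181a-2-3p and mmu-miR-181c-3p. They are 7 of the 1907 miRNA names in the count tables, and all 7 passed the filter on low counts that left 479 names for testing. The other arms of these hairpins, mmu-miR-181b-1-3p, mmu-miR-181b-2-3p and mmu-miR-181d-3p, were also listed, at far lower counts. The animals were male Balb/cOlaHsd mice, 3 months old by their labels. In the pMCAO group (n = 5) the left middle cerebral artery was closed for good by thermocoagulation, and in the sham group (n = 6) it was exposed but not occluded. The tissue is labelled peri-ischemic cortex in the pMCAO group and cortex in the sham group, whereas the study's methods call the tissue of both operations peri-ischemic. The names of all 11 count tables hold the word vehicle, but the labels name no vehicle or second treatment, no batch and no shared day.

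A miRNA is cut from a stem-loop precursor, the hairpin, whose left and right arms give the 5p and the 3p mature strand. One strand is usually kept by an Argonaute protein and guides it to messenger RNAs that pair with its seed, bases 2 to 8, while the other strand is mostly degraded. The miR-181 family is abundant in brain and in lymphoid tissue. Its 5p strands are known for tuning T cell receptor signalling in thymocytes, and in models of cerebral ischemia for targeting the messengers of the chaperone GRP78 and of BCL-2 family proteins.

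The 7 mature sequences, from RefSeq for GRCm38.p6, are shown 5′ to 3′ with the seed in capitals, because the seed divides the family into guide-strand and passenger-strand groups and the bases outside it are what the counting has to tell apart.
mmu-miR-181a-5p: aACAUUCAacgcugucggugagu
mmu-miR-181b-5p: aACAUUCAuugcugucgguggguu
mmu-miR-181c-5p: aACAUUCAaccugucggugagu
mmu-miR-181d-5p: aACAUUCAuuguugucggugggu
mmu-miR-181a-1-3p: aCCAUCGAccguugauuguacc
mmu-miR-181a-2-3p: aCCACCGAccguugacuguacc
mmu-miR-181c-3p: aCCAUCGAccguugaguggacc
The 4 5p entries shared the seed ACAUUCA, which none of the other names among the 1623 listed with a mature sequence in RefSeq carried. Among the 3p entries, mmu-miR-181a-1-3p and mmu-miR-181c-3p shared the seed CCAUCGA, and mmu-miR-181a-2-3p had CCACCGA. Counted from 1 at the 5′ end, mmu-miR-181a-5p differed from mmu-miR-181b-5p by A9U, C10U and A21G over 23 bases. The single change C12U separated mmu-miR-181b-5p from mmu-miR-181d-5p over the same length. mmu-miR-181c-5p equals mmu-miR-181a-5p with base 11 left out. Between the 3p entries, mmu-miR-181a-1-3p differed from mmu-miR-181a-2-3p by U5C and U16C, and from mmu-miR-181c-3p by U16G and U19G. How many mismatches the alignment allowed is not given in the sources used here, so reads of mmu-miR-181b-5p and mmu-miR-181d-5p in particular may have been split between names.

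The family comes from 6 hairpins in 3 pairs (GRCm38, the build of the count files, with GENCODE annotation). On chromosome 1, Mir181a-1 at chr1:137966455-137966541 and Mir181b-1 at chr1:137966639-137966718 lie on the plus strand with 97 bases between them, inside an intron of the non-coding gene Gm4258. The non-coding gene A430106G13Rik on the same strand has 80 of the 80 bases of Mir181b-1 and 11 bases of Mir181a-1 in its exons. On chromosome 2, Mir181a-2 at chr2:38852735-38852810 and Mir181b-2 at chr2:38853830-38853918 are 1019 bases apart on the plus strand, opposite an intron of Nr6a1, which encodes an orphan nuclear receptor. On chromosome 8, Mir181c at chr8:84178873-84178961 and Mir181d at chr8:84178716-84178787 are 85 bases apart on the minus strand, in an intron of Nanos3, which encodes an RNA-binding protein of germ cells. The Mir181a hairpins of chromosomes 1 and 2 carry the same 5p arm, so mmu-miR-181a-5p sums both loci, and the same holds for mmu-miR-181b-5p. Their 3p arms differ and can be told apart, as the hairpins show with both arms in capitals.
Mir181a-1: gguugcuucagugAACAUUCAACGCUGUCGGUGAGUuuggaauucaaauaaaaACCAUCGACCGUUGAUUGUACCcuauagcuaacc
Mir181a-2: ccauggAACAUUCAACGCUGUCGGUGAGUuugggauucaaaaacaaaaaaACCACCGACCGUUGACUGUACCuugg
A read that stays within the 5p arm cannot be assigned to either one. How the counting treated reads that match several loci is not given in the sources used here.

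**Figure D1:**
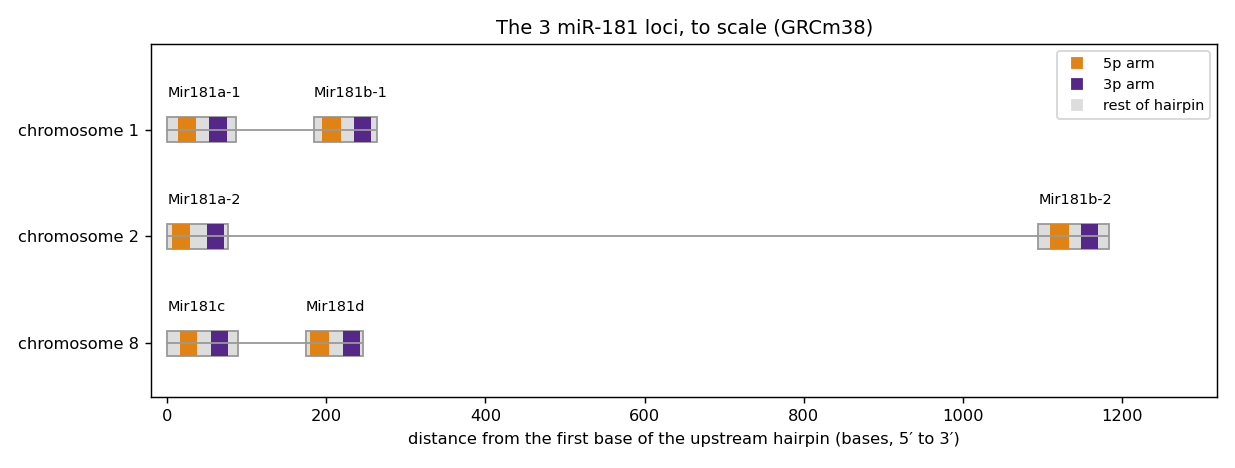
Hairpins of the 3 miR-181 pairs drawn to scale, with the distance in bases from the first base of the upstream hairpin on the horizontal axis and 1 row per chromosome. Grey boxes are hairpins, orange boxes 5p arms and purple boxes 3p arms. The pairs on chromosomes 1 and 8 are close together (97 and 85 bases between hairpins) and the pair on chromosome 2 is 1019 bases apart.

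Library totals ran from 1429037 to 2319810 counts in the sham group and from 744877 to 1411620 in the pMCAO group, so every pMCAO library was shallower than every sham library, and depth and operation cannot be told apart by group alone. The 2 shallowest were pMCAO replicate 2 (744877) and pMCAO replicate 1 (855753). Levels below are CPM, the counts relative to a library size adjusted by edgeR's TMM scaling, which is chosen so that most miRNAs keep their level. A mature miRNA gives 1 read of nearly the same length whatever its name, so CPM was compared between miRNAs without a length correction. Capture by the library kit can still differ between sequences. Bulk tissue was sequenced, so fewer cells of a type and less RNA per cell cannot be told apart.

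The family was led by mmu-miR-181a-5p, the 23rd most abundant of all miRNAs in the sham libraries. The order of the sham means ran from mmu-miR-181a-5p at 9535 ± 520 CPM (SD, n = 6), through mmu-miR-181b-5p at 2115 ± 173 and mmu-miR-181c-5p at 1144 ± 81.9, to mmu-miR-181a-1-3p at 287 ± 23.8. Below these came mmu-miR-181c-3p at 241 ± 29.1, mmu-miR-181d-5p at 74.7 ± 11.3 and mmu-miR-181a-2-3p at 33.1 ± 9.03 CPM. The step from mmu-miR-181a-1-3p to mmu-miR-181c-3p was the only one within the spread: the first was higher in 6 of 6 sham and 4 of 5 pMCAO libraries, and every other neighbouring pair kept its order in 11 of 11 libraries. Together the 7 entries held 1.27 ± 0.10% of the counts of a sham library (n = 6) and 1.23 ± 0.133% of a pMCAO library (n = 5).

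**Figure D2:**
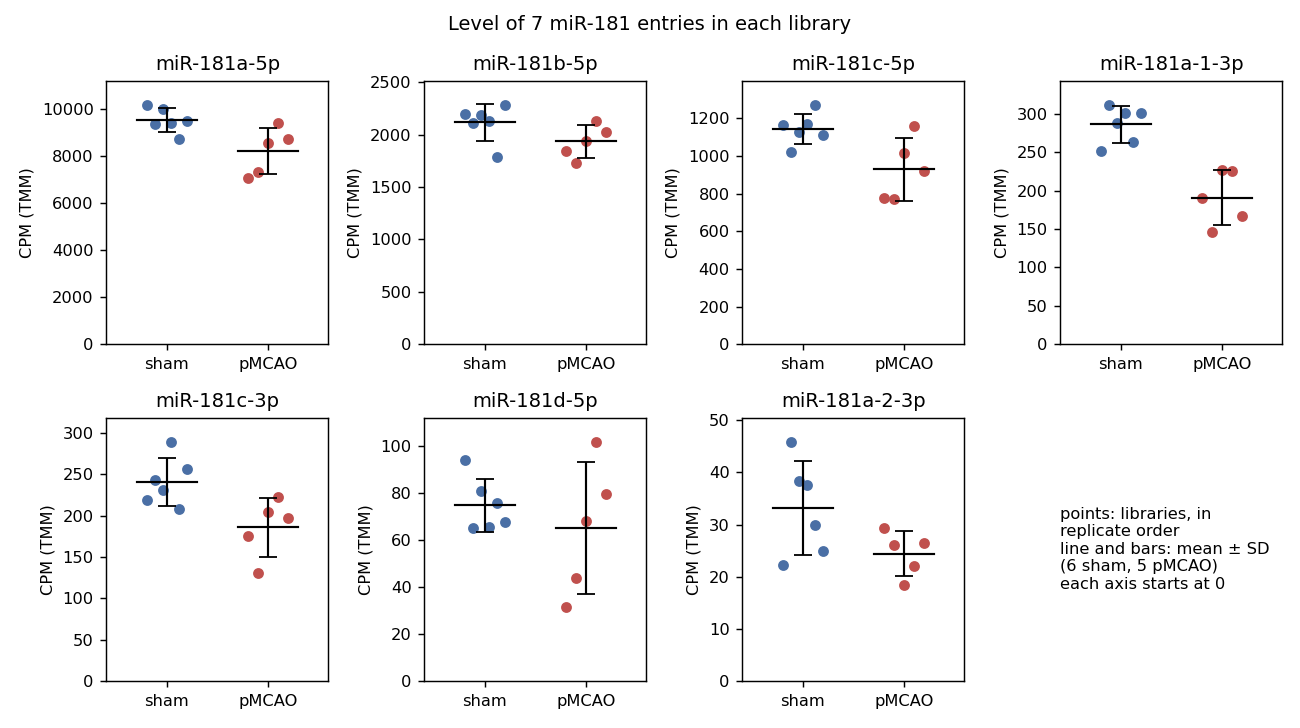
CPM after TMM scaling (vertical axis, from 0, a separate scale per panel) of the 7 miR-181 entries in 6 sham (blue) and 5 pMCAO (red) libraries; points are libraries in replicate order, and black lines and bars are the mean ± SD. The groups are apart only for miR-181a-1-3p, at 252 to 312 CPM in sham and 147 to 227 CPM in pMCAO.

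The comparison of pMCAO with sham asks which miRNAs of the cortex differ 3 days after the artery is closed. Of the 7 miR-181 entries, 1 was called: mmu-miR-181a-1-3p, the passenger strand of the chromosome 1 hairpin, fell to 66.7% of its sham mean. The other 6 had negative log2 fold changes that did not pass the test, from -0.13 to -0.45. Names were called where edgeR's quasi-likelihood test over all 479 gave a Benjamini-Hochberg adjusted p under 0.05. By that rule 34 names were called, 7.1% of those tested, of which 21 were higher and 13 lower in pMCAO. The share called lower was 2.71%, against 1 of the 7 miR-181 entries. That background is not a fixed level: the 13 lower calls became 4 with upper-quartile or TMMwsp scaling and 2 to 13 with 1 library left out, lowest without pMCAO replicate 5. With DESeq2 in place of edgeR there were 16 lower calls. The median log2 fold change was -0.30 over the 7 entries and 0.0015 over all 479, of which 49.7% were below 0.

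mmu-miR-181a-1-3p ranged from 252 to 312 CPM around a median of 295 in the 6 sham libraries. In pMCAO replicates 1 to 5 it was at 190, 147, 227, 225 and 167 CPM. Every pMCAO library was below every sham library, a separation in that direction that 16 of the 479 names showed (3.34%). The log2 fold change was -0.58 ± 0.13 (SE, 95% interval -0.86 to -0.31, edgeR adjusted p = 0.0148), on 361 to 625 counts in a sham and 124 to 297 in a pMCAO library. It was the 9th lowest fold change of the 479. The call did not hold without pMCAO replicate 5 (log2 fold change -0.52, edgeR adjusted p = 0.0542), nor without the 2 shallowest libraries, pMCAO replicates 1 and 2 (-0.44, edgeR adjusted p = 0.120). Scaling by total counts alone, which lifted the median of all tested names to 0.18, gave -0.42 (edgeR adjusted p = 0.0533).

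Its counterpart from chromosome 2, mmu-miR-181a-2-3p, lay between 22.2 and 45.9 CPM in sham with a median of 33.7. The pMCAO values were 29.2, 26.0, 18.4, 22.0 and 26.5 CPM. The groups overlapped, with 2 of 5 pMCAO libraries below every sham library. The log2 fold change was -0.45 ± 0.22 (SE, 95% interval -0.92 to 0.03, edgeR adjusted p = 0.237), and counts of 22 to 92 per library left counting error alone at 13.5% of the level in sham and 18.8% in pMCAO. That interval holds the value of mmu-miR-181a-1-3p as well as 0, and the estimate was -0.26 with total counts alone.

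mmu-miR-181c-3p, the passenger strand of the chromosome 8 hairpin with the same seed as mmu-miR-181a-1-3p, ran from 208 to 290 CPM in sham (median 237). It was at 175, 130, 205, 222 and 197 CPM in the pMCAO libraries. In 4 of the 5 it was below every sham library, and replicate 4 lay among them. Its log2 fold change was -0.37 ± 0.14 (SE, 95% interval -0.67 to -0.07), which did not pass after adjustment (edgeR, adjusted p = 0.132). It was -0.24 without pMCAO replicate 2, -0.21 with total counts alone and -0.18 without pMCAO replicates 1 and 2.

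Among the guide strands, mmu-miR-181a-5p stood between 8719 and 10186 CPM in sham, with a median of 9471. In pMCAO it was at 7084, 7317, 8568, 9426 and 8748 CPM. Replicates 1 to 3 were below every sham library and the other two were among them. The log2 fold change was -0.21 ± 0.0973 (SE, 95% interval -0.42 to -0.0036, edgeR adjusted p = 0.198). The coefficient of variation was 5.46% in sham and 12.1% in pMCAO, against a counting error of 0.804% and 1.01% of the level. The fold change was -0.14 without pMCAO replicate 2, -0.07 without pMCAO replicates 1 and 2 and -0.04 with total counts alone.

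mmu-miR-181b-5p, which shares both of its loci with miR-181a, lay between 1783 and 2282 CPM in sham (median 2159). The pMCAO values of 1844, 1731, 1938, 2132 and 2024 CPM fell largely in the same range, with 1 library below every sham library. Its log2 fold change of -0.13 ± 0.0992 (SE, 95% interval -0.34 to 0.08, edgeR adjusted p = 0.489) was the closest to 0 of the 7, and it was 0.04 when libraries were scaled by total counts alone. Without pMCAO replicate 2 it was -0.06.

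On chromosome 8, mmu-miR-181c-5p ran from 1023 to 1271 CPM in sham (median 1145). It was at 777, 770, 1017, 1162 and 921 CPM in pMCAO. Here 4 of the 5 pMCAO libraries were below every sham library, and replicate 4 was not. The log2 fold change was -0.30 ± 0.12 (SE, 95% interval -0.57 to -0.03, edgeR adjusted p = 0.154). It was -0.13 with total counts alone and -0.12 without pMCAO replicates 1 and 2.

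Its neighbour mmu-miR-181d-5p was the most variable of the guide strands. It ranged from 64.9 to 93.8 CPM in sham (median 71.7). In pMCAO it was at 31.5, 43.7, 68.0, 102 and 79.6 CPM, so that the pMCAO libraries held both the lowest and the highest value. The coefficient of variation was 43.2% in pMCAO and 15.1% in sham, against a counting error of 11.1% and 9.13%. The log2 fold change was -0.18 ± 0.25 (SE, 95% interval -0.72 to 0.35, edgeR adjusted p = 0.738), and it was 0.19 without pMCAO replicates 1 and 2, -0.03 without replicate 1 alone, -0.04 without replicate 2 alone and -0.39 without replicate 4. Without sham replicate 1 it was -0.09, and with total counts alone -0.02.

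**Figure D3:**
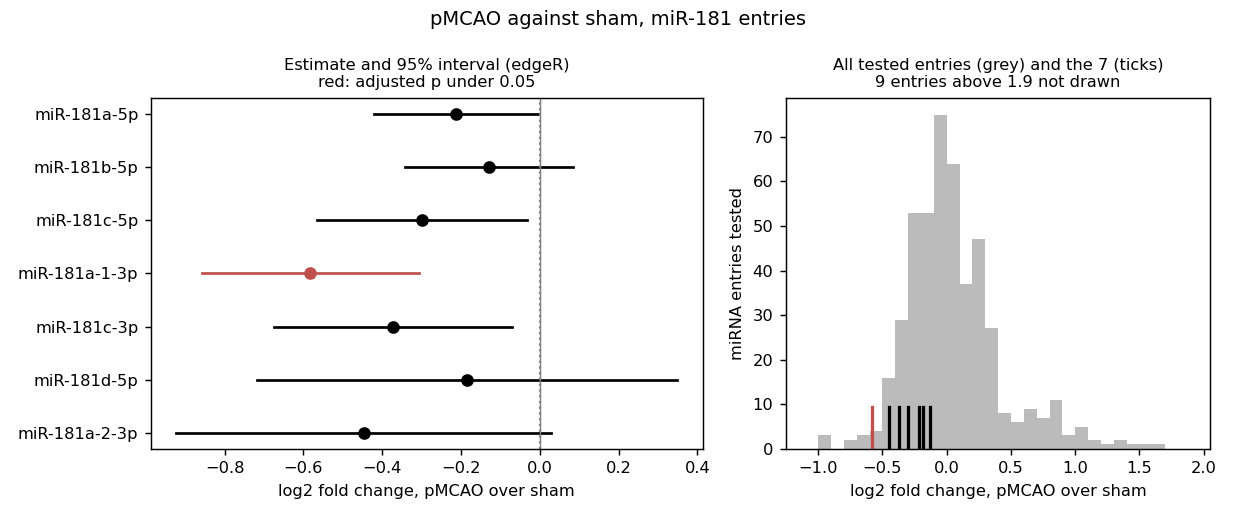
Left, log2 fold change of pMCAO over sham (horizontal axis) with its 95% interval for each miR-181 entry, with miR-181a-1-3p in red as the entry with an adjusted p under 0.05. Right, the number of tested names (vertical axis) at each log2 fold change, with the 7 entries as ticks: all lie below 0, between -0.58 and -0.13.

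The passenger-strand entries had the lower fold changes: -0.37 to -0.58 for the 3 3p entries (median -0.45) and -0.13 to -0.30 for the 4 5p entries (median -0.20). Whether members moved apart was tested as ratios of counts within a library, which no scaling between libraries can change. For 8 such log2 ratios, pMCAO minus sham was compared by an exact two-sided permutation test over the 462 arrangements of the 11 libraries, with p-values adjusted over the 8 and 0.00433 as the smallest p possible. None of the 8 passed an adjusted p of 0.05.

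The ratio of mmu-miR-181a-1-3p to mmu-miR-181a-5p came nearest. As log2 values it ran from -5.33 to -4.91 in sham, with a median of -5.01. In the pMCAO libraries it was -5.22, -5.64, -5.24, -5.38 and -5.71. Only sham replicate 1, the lowest sham library, lay among the pMCAO values. The difference was -0.38 ± 0.12 (SE, exact permutation p = 0.0130, adjusted p = 0.104), and put otherwise the 5p count was 33.3 times the 3p count in sham and 43.3 times in pMCAO. Over all 143 miRNA names with both arms tested, 12 (8.39%) had an exact permutation p under 0.05 for the change of arm ratio in either direction. In 2 of these the lesser arm fell relative to the main arm. The miR-181a pair is not among the 143, because its 3p names carry a locus number. Its ratio sets the 3p arm of the chromosome 1 locus against a 5p entry that sums both loci. It is thus not of the same kind as the arm ratios of a single name that it is set beside. Of those 143, 7 had a lower change of the lesser arm relative to the main arm than the miR-181a pair. The median change was 0.05, and the central range, from the 10th to the 90th percentile, was -0.28 to 0.46.

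For the chromosome 8 hairpin, the ratio of mmu-miR-181c-3p to mmu-miR-181c-5p changed by -0.08 ± 0.12 (SE, exact permutation p = 0.537), with 4.75 5p counts per 3p count in sham and 5.01 in pMCAO. The sham libraries covered -2.61 to -2.01 and the pMCAO libraries -2.56 to -2.14 on the log2 scale, so the ranges were nested. The fold changes of both arms of Mir181c were thus close to each other, at -0.37 and -0.30.

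The ratio of the a-1 to the a-2 passenger strand addresses the balance of the chromosome 1 and chromosome 2 loci, as far as passenger strands carry it. mmu-miR-181a-1-3p made up 89.7 ± 2.05% of the sum of both entries in sham and 88.3 ± 3.30% in pMCAO. The log2 ratio changed by -0.20 ± 0.26 (SE, exact permutation p = 0.429), and it was 0.05 without pMCAO replicates 1 and 2. At the neighbouring hairpins, mmu-miR-181b-1-3p held 79 of 93 counts shared with mmu-miR-181b-2-3p over the sham libraries (84.9%, 95% exact binomial interval 76.0 to 91.5%, counting error only) and 31 of 37 in pMCAO (83.8%, 68.0 to 93.8%). In both pairs the chromosome 1 name thus had most of the passenger counts in both groups.

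The shares of the 5p entries in their sum varied, relative to their level, least for mmu-miR-181a-5p and most for mmu-miR-181d-5p. mmu-miR-181a-5p was 74.1 ± 0.605% of the 4 in sham and 73.7 ± 0.628% in pMCAO, and mmu-miR-181b-5p 16.4 ± 0.845% and 17.4 ± 0.933%. For mmu-miR-181c-5p the shares were 8.92 ± 0.946% and 8.29 ± 0.585%, and for mmu-miR-181d-5p 0.579 ± 0.0747% and 0.565 ± 0.186%, the last from 0.323 to 0.793% across the pMCAO libraries. Relative to mmu-miR-181a-5p, the log2 ratio of mmu-miR-181b-5p changed by 0.09 ± 0.05 (SE, exact permutation p = 0.0996), that of mmu-miR-181c-5p by -0.09 ± 0.08 (exact permutation p = 0.273) and that of mmu-miR-181d-5p by -0.08 ± 0.23 (exact permutation p = 0.714). The pair on chromosome 8, mmu-miR-181d-5p to mmu-miR-181c-5p, changed by 0.01 ± 0.22 (exact permutation p = 0.965), and mmu-miR-181a-2-3p to mmu-miR-181a-5p by -0.18 ± 0.25 (exact permutation p = 0.472). The adjusted p of these was 0.398 or above. The standard errors of the ratios with mmu-miR-181d-5p or mmu-miR-181a-2-3p were 0.22 to 0.26, larger than the 0.12 of mmu-miR-181a-1-3p to mmu-miR-181a-5p. A difference of -0.38 was not reliably detectable in those less precise ratios.

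**Figure D4:**
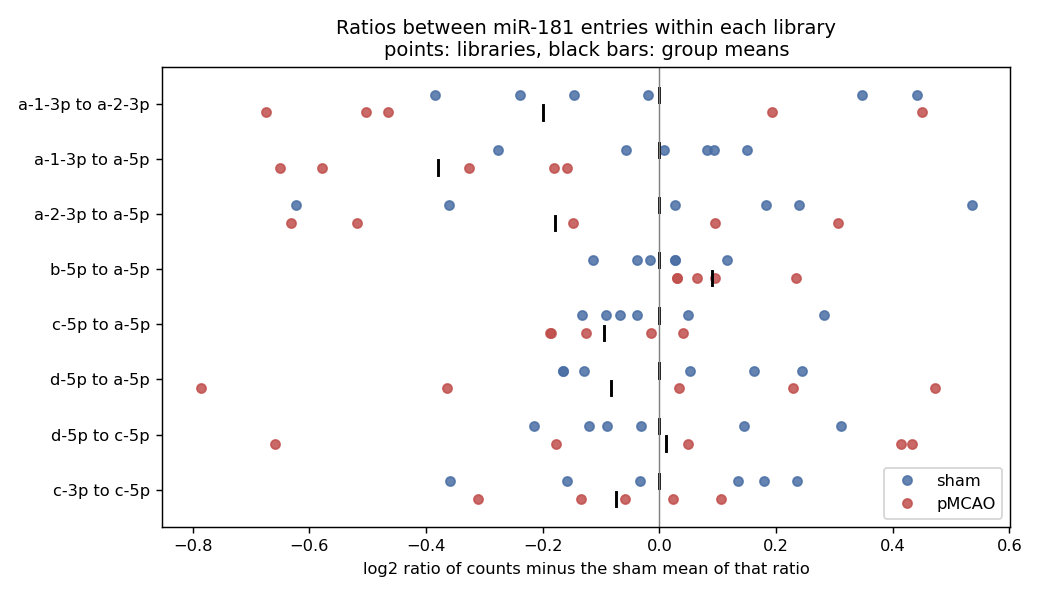
Log2 ratio of counts between 2 miR-181 entries in each library, minus the sham mean of that ratio (horizontal axis), for 8 ratios (rows). Blue points are 6 sham libraries, red points 5 pMCAO libraries and black bars the group means. The groups overlap in every row, with the difference of -0.38 for a-1-3p to a-5p farthest from 0.

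Across the 11 libraries, the guide strands varied together to different degrees. Pearson's r of log2(CPM + 1) was 0.86 between mmu-miR-181a-5p and mmu-miR-181d-5p, which come from different chromosomes, and 0.85 between mmu-miR-181a-5p and mmu-miR-181b-5p, whose loci are shared. The lowest values among guide strands were those of mmu-miR-181b-5p with mmu-miR-181c-5p (r = 0.54) and with mmu-miR-181d-5p (r = 0.59), and as deviations from group means 0.32 and 0.52. mmu-miR-181a-1-3p had r = 0.89 with mmu-miR-181c-3p, from another chromosome, and r = 0.74 with mmu-miR-181a-5p, the other arm of its own hairpin and of Mir181a-2. Taken as deviations from each group's mean, so that the group difference does not enter, these values were 0.81 and 0.43. The sequences of mmu-miR-181a-1-3p and mmu-miR-181c-3p differ at only 2 bases. Whether reads were split between these names is not known, so their r may not be that of separate counts. mmu-miR-181a-2-3p had r between -0.17 and 0.44 with the other 6, and between -0.50 and -0.04 as deviations from group means. All these correlations are descriptions over n = 11 libraries that share depth, scaling and operation.

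**Figure D5:**
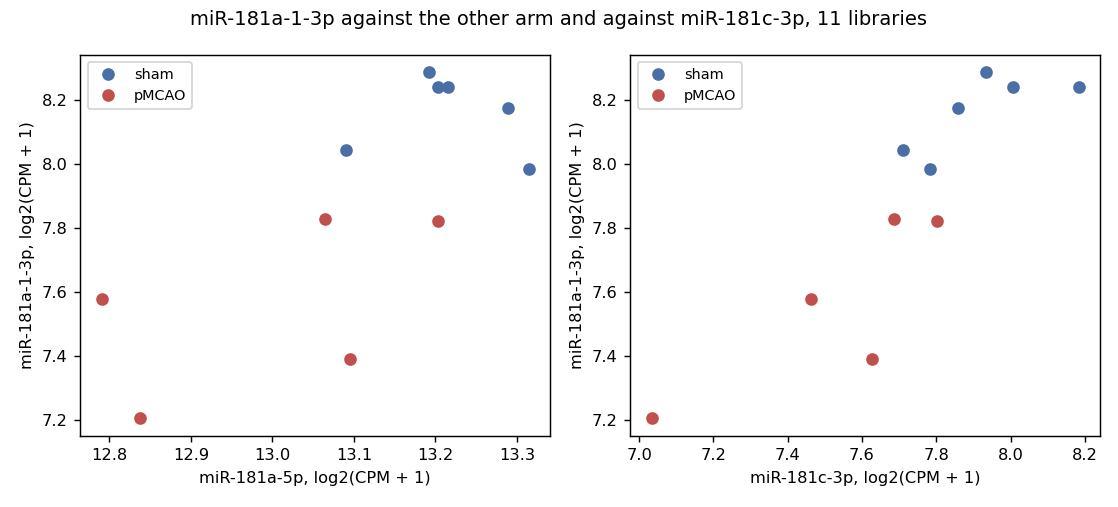
miR-181a-1-3p (vertical axes) against miR-181a-5p (left) and miR-181c-3p (right), each as log2(CPM + 1), in 6 sham (blue) and 5 pMCAO (red) libraries. The points follow miR-181c-3p (r = 0.89, n = 11) more closely than miR-181a-5p (r = 0.74), and pMCAO replicate 2 is lowest in miR-181a-1-3p in both panels.

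The tested miRNAs outside the family most like 3 of its members were listed by the same r over 11 libraries. For mmu-miR-181a-1-3p these were mmu-miR-34a-5p, a target of p53 (r = 0.95), mmu-miR-23b-3p (r = 0.93) and mmu-miR-195a-5p of the miR-15/16 family (r = 0.93). All 3 were lower in pMCAO by the same test, with log2 fold changes of -0.92, -0.35 and -0.63 (edgeR, adjusted p = 0.0412, 0.0356 and 0.0396). The r used for listing includes the group difference, so names like a called entry tend to share its fall. Their calls are therefore not separate findings. As deviations from group means their r was 0.89, 0.74 and 0.79. For mmu-miR-181c-5p the list was mmu-miR-125b-5p, a homologue of lin-4 (r = 0.96), mmu-miR-151-5p (r = 0.88) and mmu-miR-222-3p (r = 0.83). For mmu-miR-181a-5p it was mmu-miR-136-3p (r = 0.87), mmu-miR-29c-5p (r = 0.80) and mmu-miR-125b-5p (r = 0.80). None of the 5 names in the last 2 lists passed the test of pMCAO against sham (edgeR, adjusted p from 0.148 to 0.415).

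Among other abundant families counted in the same libraries, the let-7 5p arms, which mark differentiated cells, had 7 of 8 positive log2 fold changes, a median of 0.09 and no call in either direction. The miR-30 5p arms had 5 of 5 negative values, a median of -0.44 and 2 calls, both lower. The 4 miR-181 5p entries, at 4 of 4 negative with a median of -0.20 and no call, lay between these families.

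Marker miRNAs of cell types moved between the groups as well. Of 4 leukocyte miRNAs, 3 were called higher, mmu-miR-223-3p, mmu-miR-142a-3p and mmu-miR-142a-5p, with log2 fold changes of 2.31, 1.55 and 1.46 (edgeR, adjusted p = 0.00544, 0.00569 and 0.00569), whereas mmu-miR-150-5p, a lymphocyte miRNA, had -0.25 (edgeR adjusted p = 0.370). The last was also the most abundant, at 2735 CPM in sham and 2300 CPM in pMCAO, and the summed level of the 4 was 2422 to 3718 CPM in sham and 3148 to 6363 CPM in pMCAO. Of 3 oligodendrocyte miRNAs, 1 was called lower, mmu-miR-338-3p at -0.54 (edgeR, adjusted p = 0.0453), with summed levels of 4287 to 5244 and 2530 to 4955 CPM. Of 6 neuronal miRNAs none was called, their median log2 fold change was -0.08, and their sum was 300630 to 381582 CPM in sham and 257388 to 307025 in pMCAO. The 2 most abundant, mmu-miR-124-3p and mmu-miR-128-3p, had the lowest log2 fold changes, -0.32 and -0.39. Against these, 2 of the 6 were positive, up to 0.32 for mmu-miR-129-5p. The brain label was matched by mmu-miR-124-3p, the main neuronal miRNA, at 209811 CPM in sham and 168631 CPM in pMCAO (edgeR adjusted p = 0.0523). Its level in every pMCAO library was below that in every sham library. No call was made in the 2 endothelial miRNAs (9192 to 13016 and 9518 to 13653 CPM), nor in the 2 of 4 erythrocyte miRNAs that were tested (summed over the 4, 49.2 to 5375 and 639 to 4734 CPM). Sham replicate 1 alone gave the high end of the sham erythrocyte range. The other sham libraries were at 49.2 to 272 CPM, below every pMCAO library. The untested erythrocyte names, mmu-miR-144-5p and mmu-miR-486a-5p, were at 0 counts in at least 1 library, and no marker of the other lists was at 0. The most extreme leukocyte sum, 6363 CPM, was in pMCAO replicate 2, also the shallowest library (744877 counts). That replicate had the lowest mmu-miR-181a-1-3p, mmu-miR-181b-5p, mmu-miR-181c-5p and mmu-miR-181c-3p of its group, and the lowest neuronal sum (257388 CPM). In pMCAO replicate 1 the leukocyte sum (3148 CPM) and the oligodendrocyte sum (2530 CPM) were the lowest of the group. That library, the next shallowest (855753 counts), had the lowest mmu-miR-181a-5p and mmu-miR-181d-5p of the group. What part these cell types had in the miR-181 values was not tested.

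The remaining arms were at the limit of the depth. mmu-miR-181b-1-3p, at 3 to 22 counts a library and 8.02 against 5.17 CPM, was tested and not called (log2 fold change -0.61 ± 0.36, SE, edgeR adjusted p = 0.343). mmu-miR-181b-2-3p had at most 5 and mmu-miR-181d-3p at most 3 counts in any library, so neither was tested, and a difference between groups was not detectable at this depth.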

How the data were processed

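Small RNA enriched from total RNA of 11 cortex samples (6 sham, 5 pMCAO) was sequenced by the authors on an Ion Torrent instrument. Per the labels and the study's methods, the reads were checked with FastQC, aligned to mm10 with Bowtie and counted per miRBase name with HTSeq, and the deposited values are raw counts per miRNA name with no normalization. Tool versions, mismatch settings and the treatment of reads with several matches are not given in the sources used here. The study's methods used DESeq2; edgeR's quasi-likelihood test (edgeR 4.0.16, R 4.3.3) was used here, with DESeq2 1.42.0 as an alternative. Names were kept by filterByExpr (minimum count 10, minimum total 15), libraries scaled by TMM and p-values adjusted by Benjamini-Hochberg over 479 names. Ratios between entries added 0.5 to each count. Levels per library were also taken as log2(CPM + 1). The script was tested on simulated counts.

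The members and the lists of other families and markers were chosen with earlier results of these data known. Named genes were the 7 members, the 3 miRNAs most like each of mmu-miR-181a-5p, mmu-miR-181c-5p and mmu-miR-181a-1-3p, the other arms of the same hairpins and the cell type markers, of which those called or bearing on a result are given. No 2 libraries of a group agreed within counting noise (25 pairs). Nothing says that the replicates were separate animals beyond their numbering, so p-values measure the spread between these samples. Binomial intervals cover counting error only. Totals of 744877 to 2319810 counts per library make 3 counts equal to 1.50 to 3.55 CPM. Alternatives were other scalings, filters, thresholds, DESeq2, thinning to the smallest total, each replicate left out and the replicate number as a block; leaving out the 2 shallowest libraries and the arm ratios of all names were added after seeing the data.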

Additional observations from a re-analysis of the deposited data

Results flagged for a closer look

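In sham replicate 5, mmu-miR-181b-5p was at 10.80 on the log2(CPM + 1) scale, below the nearest other sham library at 11.04, a gap of 0.685 of the whole range of the 6 sham libraries. It stood out as a sample far from the others of its group. Of 38 sets of values checked in this way this was the only 1, where about 1.9 are expected by chance. The same library did not stand apart in mmu-miR-181a-5p, in which it was also the lowest sham library, and without it the log2 fold change of mmu-miR-181b-5p kept its direction.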

How the results depend on the processing

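The number of miRNAs called was 34, and it was 22 with the replicate block, 18 with at least 10 counts required in every library, 19 after thinning to the smallest total, 14 at an adjusted p under 0.01, 57 at an adjusted p under 0.1, 14 without the 2 shallowest libraries and 16 to 36 with 1 replicate left out. The split of 21 higher and 13 lower became 43 higher and 1 lower when libraries were scaled by total counts alone. The lower calls were 4 with upper-quartile or TMMwsp scaling, 8 with no filter, 3 with the block, the filter of 10 or thinning, 2 without the 2 shallowest libraries and 2 to 13 with 1 replicate left out. They rose to 16 with DESeq2 and to 25 at an adjusted p under 0.1. The number of miR-181 entries called lower, 1, became 0 with total counts alone, with the replicate block (mmu-miR-181a-1-3p, log2 fold change -0.58, edgeR adjusted p = 0.0523), at an adjusted p under 0.01 and without the 2 shallowest libraries, and was 0 to 1 with 1 replicate left out, being 0 without pMCAO replicate 5. In the remaining alternatives its edgeR or DESeq2 adjusted p was 0.00339 or above and stayed under 0.05, and its log2 fold change was negative in every alternative run. Directions turned for mmu-miR-181b-5p with total counts alone (0.042) and for mmu-miR-181d-5p without the 2 shallowest libraries (0.19), neither of them called. Of the ratios, none of which passed, d-5p to c-5p turned to -0.0033 after thinning, to -0.0061 with the replicate block and ranged from -0.093 to 0.18 with 1 replicate left out; d-5p to a-5p ranged from -0.22 to 0.092 and was 0.24 without the 2 shallowest libraries, where a-1-3p to a-2-3p was 0.047. The causes were not tested. Same-numbered samples deviated together weakly at most (r from -0.08 to 0.23, and 1 of 5 correlated best with its own number). This gives no sign that the numbers pair the samples, but it cannot exclude a shared day or batch. In a sign-flip test of a ratio, 5 pairs allow no p under 0.0625. The ratios with mmu-miR-181d-5p and mmu-miR-181a-2-3p are limited by counts of 22 to 148 per library.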
